A study of Danio rerio with 4 samples.

Results

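CTCF peaks that lay in clusters of 3 or more were taken from a ChIP-seq map of zebrafish embryos aged 24 hpf, that is, hours after fertilisation. Of the CTCF peaks in this map, 2061 of 37625 (5.48%) met the rule. The members were chosen by position alone. On the 22 chromosomes used, which are 1 to 25 without 4, 18 and 22, peaks were sorted by their centres and neighbours no more than 2000 bp apart were chained, and every chain of 3 or more peaks was kept as a cluster. This gave 608 clusters (95% exact Poisson interval 561 to 658, counting error only) among 32075 peaks, so that members made up 6.43% of the peaks on these chromosomes. The other peaks were 5140 paired peaks, in chains of 2, and 24874 single peaks with no neighbour within 2000 bp. On these chromosomes no peak was filtered out by score or width. Every member enters the main comparisons below, while clusters with a tie for the highest score are left out of the strongest member's position.

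The ChIP group was AB-strain embryos labelled ctcf{HPSH} and precipitated with an anti-HA.11 antibody, and the input group was sonicated chromatin of the same replicates kept back before precipitation, each with 2 replicates. Per the labels, each replicate combined 2000 embryos from crosses of fish with 1 HA-tagged and 1 wild-type ctcf allele, so the antibody was directed at the product of the tagged allele, in all cell types of the embryo together. Both ChIP replicates had been combined into 1 peak list before deposit, in coordinates of the build danRer10. No value of a single library or of the input can therefore be given, the depth is unknown, and the spread reported is that between chromosomes, which are not replicate embryos. The authors' peak score is a whole number on a scale that is not stated, so it was used by rank and in its own units.

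CTCF is a DNA-binding protein with a row of zinc fingers that recognises a long, directional motif. At many of its sites in vertebrates it halts the loop-extruding ring complex cohesin, and the loops that form between such sites bound domains of chromatin contact. Neighbouring sites in close succession are known from domain borders in mammals, where several bound sites can stand side by side. The sequence under the peaks was not analysed here, so neither motifs, their direction nor nearby genes are given.

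Most clusters were small and short. Of the 608, 431 (70.9%) held 3 peaks, 134 held 4, 30 held 5, 11 held 6, and 1 each held 7 and 9 peaks. From the start of the first peak to the end of the last, the median length was 2627 bp (quartiles 2113 and 3176 bp), the shortest cluster measured 934 bp and the longest 11142 bp. Trios had a median length of 2412 bp, clusters of 4 peaks 3032 bp and clusters of 5 peaks 4082 bp. All clusters together spanned 1679 kb, or 0.143% of the chromosomes up to their last peaks, which is 1 cluster for every 1.93 Mb.

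**Figure D1:**
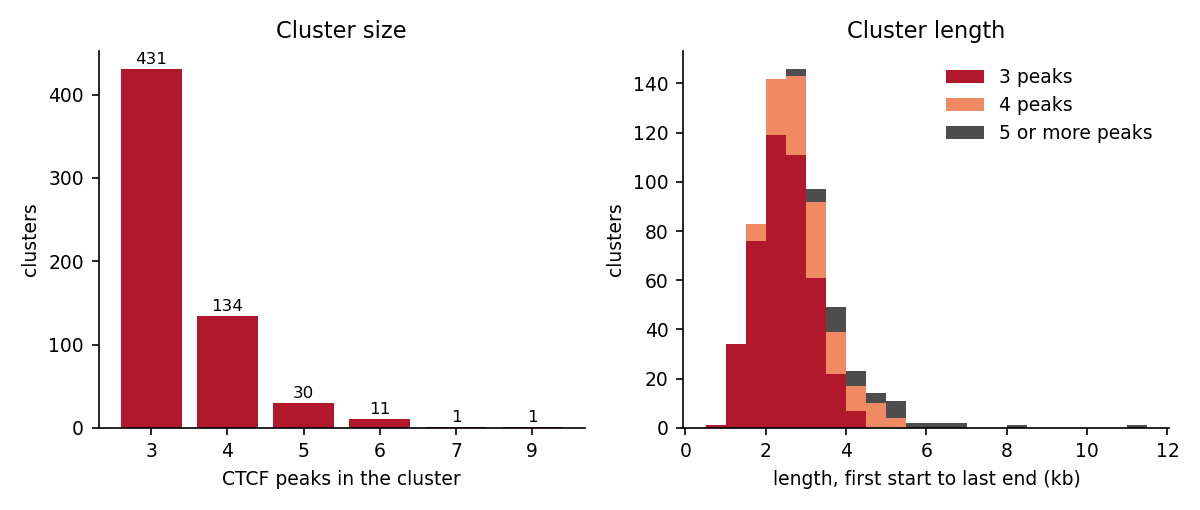
Number of clusters by the number of peaks they hold (left) and by their length in kb, stacked by size (right). Trios make up 431 of the 608 clusters, and lengths gather around the median of 2627 bp with a tail to 11142 bp.

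The largest cluster lay near the left end of chromosome 1, at chr1:36543-47684, with 9 peaks over 11142 bp. Along the chromosome its scores were 300, 385, 723, 597, 304, 755, 1635, 424 and 166. The strongest member, the seventh, ranked 149 among the 36540 peaks of the 25 chromosomes, whereas the last member, with 166, was among the weakest 3.07% of the 32075 peaks. Links between centres measured 657 to 1665 bp, and the peaks themselves covered 31.1% of the cluster. The 7-peak cluster at chr6:115446-123484 had links of 708 to 2000 bp, and peaks covered 41.4% of it. Its scores were 506, 845, 339, 1008, 664, 289 and 747, and the strongest member stood in the middle. A link between its members measured exactly 2000 bp, so this cluster holds together at the limit of the rule.

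Clusters of 6 peaks were found on chromosomes 3, 6, 7, 8, 15, 19 and 20. At chr3:6246036-6252728 all members were of middle or low rank, with scores of 262, 184, 419, 209, 235 and 382, and the strongest, 1412 bp wide, was also the widest. At chr8:1407270-1413773 the scores 900, 629, 345, 442, 703 and 937 placed the strongest members at both outer positions. On chromosome 7, at chr7:64181554-64187691, the first peak was the strongest, with 890, and the last the weakest, with 207. Near the right end of chromosome 6 there were 3 clusters of 6 peaks. These were chr6:59947210-59951364, chr6:59957396-59962715 and chr6:60061794-60066482, with highest scores of 563, 509 and 1138. A cluster of 6 in the interior of the same chromosome, chr6:26306794-26311192, was packed more tightly, with peaks over 67.7% of its 4399 bp and scores of 213, 241, 412, 297, 472 and 245. The remaining cluster named for its size, chr20:30789665-30793690, had a highest score of 602 and links of 469 to 1493 bp. The 5 longest clusters were the largest 5 in the order given, on chromosomes 1, 6, 3, 8 and 7.

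The 5 clusters with the highest-scoring members held 3 or 5 peaks. The highest-scoring member of all, with 3142, ranked 9 on the chromosomes and belonged to a trio formed by the last peaks listed for chromosome 20 (chr20:55335873-55338213), beside members of 1430 and 351. This trio was also isolated, with 148829 bp to the next peak outside it. At chr14:19792934-19797296 the scores were 1099, 1555, 971, 2595 and 255, so 4 of the 5 members were at percentiles of 96.3 or higher in the list. At chr7:52740009-52744197 they were 2038, 464, 644, 1513 and 2175, with the strongest peaks at the 2 ends of the cluster. By contrast, chr8:153334-156701 had a single strong member, its last, of 2373 beside 325, 238, 426 and 609, and chr13:35779154-35782549 likewise had 2136 beside 211 and 549. In each of these 5 clusters the strongest member was the last or the last but 1 along the chromosome. These positions were common in all clusters without a tie. Of 430 trios, the strongest member was the middle peak in 140 and the last in 156. Of 28 clusters of 5, it was the fourth peak in 4 and the last in 10. Whether the 5 clusters differ from the others in this was not tested.

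**Figure D2:**
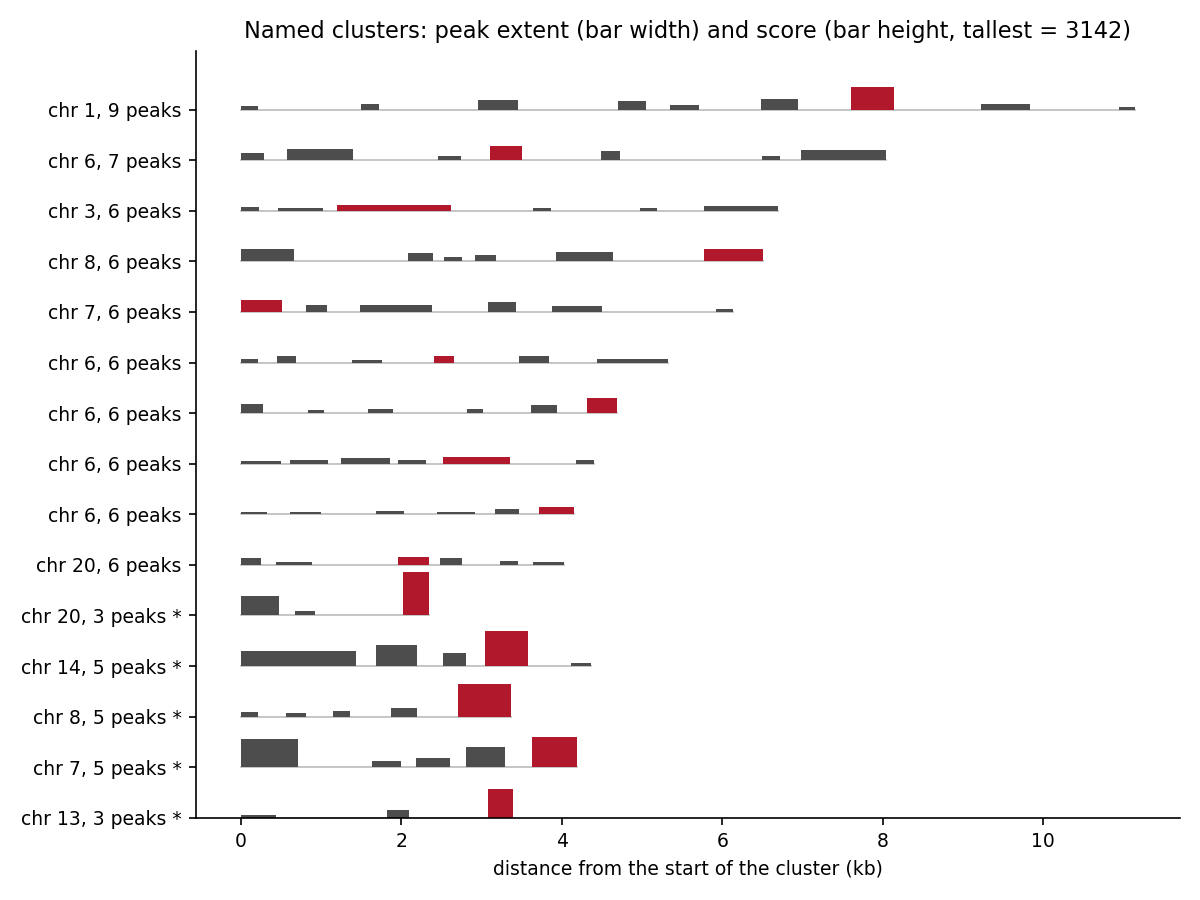
Map of the 10 clusters with most peaks and, marked with an asterisk, the 5 with the highest-scoring member; the horizontal axis is the distance from the start of the cluster in kb. Each bar spans a peak, its height is the peak's score (tallest 3142), and the strongest member of each cluster is red. The 9-peak cluster of chromosome 1 reaches 11142 bp, and strong members stand at outer as well as inner positions.

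The 5 shortest trios were all of middle or low score. The shortest, chr1:32006598-32007531, packed 3 peaks of 213 to 247 bp into 934 bp, with scores of 146, 207 and 211. The next were chr1:28161920-28162946 (355, 263 and 338), chr15:2365961-2367019 (183, 200 and 295), chr8:41667976-41669066 (220, 148 and 171) and chr21:37779294-37780408 (264, 434 and 392). In these trios the peaks lay 110 to 325 bp apart edge to edge, and the smallest gap in the whole list was 101 bp.

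Links within clusters were most often 500 to 750 bp long. Of 1453 links, 24.6% fell in that class and 21.7% in the class of 750 to 1000 bp, against 20.8% and 16.0% of the 2570 links of paired peaks. The median link was 892 bp in clusters and 954 bp in pairs. Measured edge to edge, the median gap was 428 bp in clusters and 572 bp in pairs, and 24.9% of gaps in clusters and 20.1% in pairs were 200 bp or less. Because the rule itself sets the upper limit of a link, these distances are a description. The rule also places the next peak outside a cluster more than 2000 bp away, so a wider spacing there is no result. The median distance from a cluster to its nearest further peak was 9309 bp (quartiles 4240 and 19664 bp).

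The limit of 2000 bp cut through a continuous range of spacings. The cluster nearest below it besides that of chromosome 6 was chr2:1093397-1096597, whose larger link measured 2000 bp, with scores of 278, 230 and 637. Just outside lay 3 neighbouring peaks at chr9:46237242-46241162, with a larger link of 2001.0 bp and scores of 623, 379 and 345, and 3 peaks at chr11:16579-20385, with 2001.5 bp and scores of 207, 237 and 262. Clusters with a largest link of over 1800 bp numbered 82, and their 289 members had medians of 364 in score and 279 bp in width. Sets of 3 neighbouring peaks outside clusters with a larger link of up to 2200 bp numbered 60, and their 172 peaks had medians of 383 in score and 276 bp in width.

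In trios as listed, the strongest member stood in the middle about as often as the number of positions gives. Among 430 trios without a tie for the highest score, it was the first peak in 134, the middle peak in 140 and the last in 156. The middle share was 32.6% (95% Clopper-Pearson interval 28.1 to 37.2%), which includes the 33.3% that the number of positions alone gives. After merging peaks with a gap of 500 bp or less, the middle peak was strongest in 32 of 134 trios (23.9%, Clopper-Pearson interval 16.9 to 32.0%), an interval that lies below the share by position. It overlaps the interval before merging, and the other settings tried gave 30.5 to 34.6%. Merging changes the widths and centres that decide which peaks form a trio. Whether 33.3% is the right reference after merging was not tested. In clusters of 4, the strongest was an inner peak in 57 of 132 (43.2%, interval 34.6 to 52.1%, against 50% by number of positions). Median scores of the first, middle and last peak of trios were 356, 359 and 361, and their median widths 292, 290 and 290 bp. The strongest member was also the widest in 261 of the 430 trios (60.7%, interval 55.9 to 65.3%, against 33.3% by number of peaks). Wider peaks scored higher in the whole list, and whether trios differ from it in this was not tested.

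Summits did not lean toward the cluster. In the 1216 outer members the summit lay at a median of 50.1% of the width from the edge that faces the other peaks (quartiles 41.2 and 58.2%), and 601 of them (49.4%, Clopper-Pearson interval 46.6 to 52.3%) had it on the facing side of the midpoint. The quartiles of the summit position were 40.3 and 58.0% in the 845 inner members, against 42.8 and 56.8% in single peaks.

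The members of a cluster spanned a wide range of scores. The strongest member reached a median percentile of 75.8 among the 32075 peaks (quartiles 59.8 and 88.6), and the weakest a median percentile of 15.3 (quartiles 5.89 and 31.4). In 135 clusters (22.2%) the strongest member was above the 90th percentile, and in 24 of these it was in the highest 1%. A member in the highest 25% together with one in the lowest 25% was found in 173 clusters (28.5%). Conversely, 99 clusters (16.3%) had no member above the median of the list, and only 65 (10.7%) had all members above it. The maximum and minimum of several peaks lie apart in any set of that size, so these values are no trait of clusters and were not tested. Linked neighbours resembled each other only weakly in score (Spearman's rho = 0.152 over 1453 links, which share clusters and a place on the chromosome, against 0.0931 for linked pairs and 0.0502 for neighbouring single peaks up to 20 kb apart).

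Taken one by one, cluster members scored lower than other peaks of the same chromosome, but on average not within 2 Mb of an end. Their median score was 350 (quartiles 259 and 498), against 367 for paired and 370 for single peaks. A member outranked a single peak in 46.1 ± 3.77% of pairs of peaks (SD, n = 22 chromosomes), above 50% on 3 chromosomes only (sign-flip permutation test over chromosomes, two-sided p = 7e-05, adjusted p = 9.33e-05 over 4 comparisons). Against paired peaks the share was 47.2 ± 2.98%, above 50% on 4 chromosomes (permutation p = 0.0002, adjusted p = 0.0002). The size depended on the link limit: the departure from 50% was -3.94 points against single and -2.82 points against paired peaks at 2000 bp, -9.01 and -6.71 points at 1000 bp, and -1.77 and -1.35 points at 3000 bp (adjusted permutation p = 0.0494 for both at 3000 bp). That closely spaced peaks scored lower had been seen before in these data, so the comparison with single peaks is not independent support for it. Chromosome 15 stood lowest, at 37.7% with medians of 280 for members and 359 for single peaks, and chromosome 7 highest, at 54.0% with medians of 400 and 358.5.

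Members were more frequent than single peaks in the lowest-scoring 25%, less frequent in the highest-scoring 25% and more frequent in the highest 1%, as shares whose differences were not tested. Of the members, 29.9% were in the lowest-scoring 25% of peaks (Clopper-Pearson interval 27.9 to 31.9%), against 24.2% of single peaks, and 21.8% were in the highest-scoring 25%, against 25.4% of single peaks. The highest 1% held 1.50% of members (31 peaks, interval 1.02 to 2.13%) and 0.949% of single peaks (interval 0.832 to 1.08%), and these intervals overlap. Those 31 members lay in 24 clusters and are not independent. Paired peaks were close to single peaks. Their shares were 25.8% in the lowest 25% (interval 24.6 to 27.0%), 24.1% in the highest 25% (22.9 to 25.3%) and 1.05% in the highest 1% (0.790 to 1.37%). Each of these intervals overlaps that of single peaks, which were 23.7 to 24.8%, 24.9 to 25.9% and 0.832 to 1.08%.

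Members were wider than other peaks. Their median width was 297 bp (quartiles 239 and 453 bp), against 268 bp for paired and 259 bp for single peaks. A member was wider than a single peak in 60.4 ± 3.87% of pairs, above 50% on 22 of 22 chromosomes (sign-flip permutation p = 1e-05, the smallest that the resamples can give, adjusted p = 2e-05), and wider than a paired peak in 57.5 ± 4.25%, above 50% on 20 of 22 (permutation p = 1e-05, adjusted p = 2e-05). Widths of 500 bp or more were held by 20.8% of members, against 13.1% of paired and 10.9% of single peaks. This excess was not present everywhere. Within 2 Mb of a chromosome end the share was 13.4% of members, 12.7% of paired and 14.5% of single peaks. At 2 to 10 Mb it was 14.7, 10.0 and 11.9% in the same order, and more than 10 Mb from the ends 27.6, 16.2 and 8.97%. The widest member measured 2149 bp, whereas single peaks reached 4101 bp. The rule itself limits the width of a member, because the centre of a separate neighbour must lie within 2000 bp. This contrast of the widest peaks is therefore no result.

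**Figure D3:**
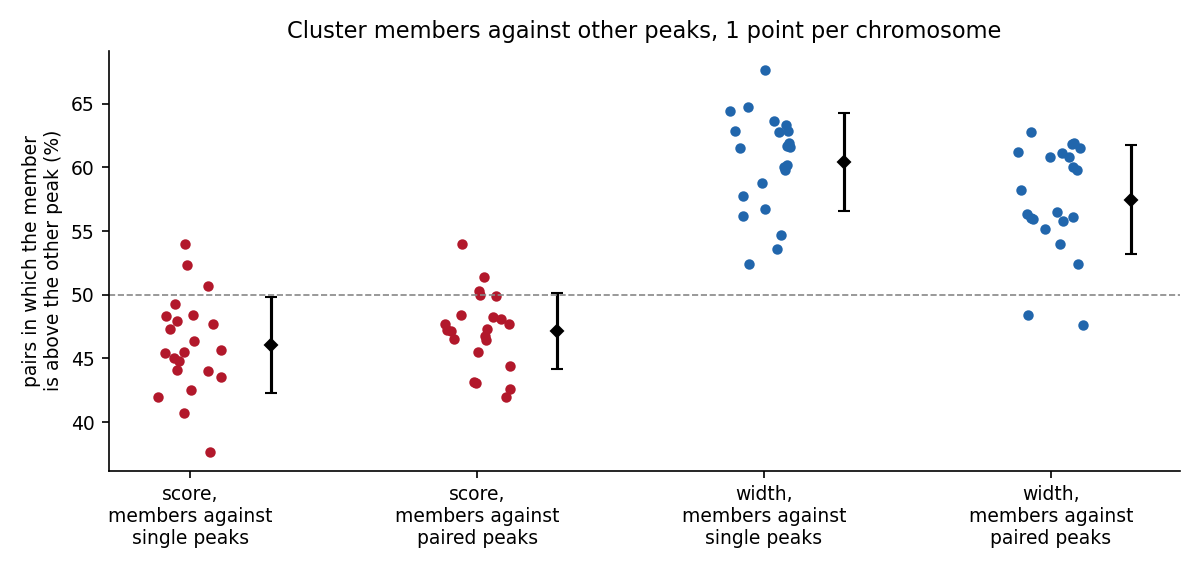
Percentage of pairs of peaks in which a cluster member was above a single or a paired peak of the same chromosome, for score (red) and width (blue). Each point is 1 of 22 chromosomes, diamonds and bars are means and SD, and the dashed line marks 50%. Score shares lie mostly below the line and all width shares against single peaks above it.

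Lower scores and greater widths went together against the general trend of the list, in which wider peaks scored higher. Within each class of width the members scored lower than single peaks. Median scores were 285 against 303 at 200 to 249 bp, 380 against 462 at 250 to 349 bp, 368 against 472 at 350 to 499 bp, and 458 against 620 at 500 bp or more. Paired peaks lay between members and single peaks in each class, with medians of 297, 447, 459 and 521 in the same order. In the widest class, 428 members outranked 2714 single peaks in 35.7 ± 7.13% of pairs, below 50% on 22 of 22 chromosomes. Across peaks, width and score were correlated at Spearman's rho = 0.394 in members, 0.477 in paired peaks and 0.526 in single peaks.

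None of the 4 differences passed the threshold after close peaks were merged. A merged peak kept the highest score and the full span of its parts. By construction, merging therefore changes the scores, the widths and the sets that are compared, and leaves fewer members. After peaks with a gap of 500 bp or less had been merged, 155 clusters were left, and the share against single peaks departed from 50% by -2.93 percentage points in score (adjusted permutation p = 0.262) and by 1.80 points in width (adjusted permutation p = 0.262). In the highest-scoring 50% of peaks, a limit on score that by construction removes the low scores compared, they were -0.606 points (adjusted permutation p = 0.808) and 6.27 points (adjusted permutation p = 0.07). Whether 1 bound region had been called as several peaks cannot be told apart from separate sites in a list without signal values.

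Along the chromosome, clusters were most frequent near the ends and least frequent at 5 to 10 Mb. Counted per length, every class farther in was above that low but below the class of 2 to 5 Mb. Per 10 Mb there were 50.9 clusters within 0.25 Mb of an end, 17.9 at 0.25 to 1 Mb, 9.09 at 1 to 2 Mb, 6.74 at 2 to 5 Mb, 2.91 at 5 to 10 Mb, 5.18 at 10 to 15 Mb, 4.15 at 15 to 20 Mb and 3.24 farther from both ends. Peaks of every set were denser at the ends, and what a denser stretch alone would give was not tested. Relative to the peaks present, members made up 19.0 of 100 peaks within 0.25 Mb of an end. The share was 9.33 at 0.25 to 1 Mb, 6.29 at 1 to 2 Mb, 5.55 at 2 to 5 Mb and 3.13 at 5 to 10 Mb. In the classes from 10, 15 and 20 Mb it was 7.55, 6.94 and 6.20. By this measure every class from 10 Mb on was above the class of 2 to 5 Mb. Within 2 Mb of an end lay 26.1% of members, against 22.3% of paired and 14.7% of single peaks. Because the rule used the positions, these shares were not tested.

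Members near the ends had higher median scores than members in the interior, and members in the interior were wider. Within 0.25 Mb of an end the median score was 463 in members, 407.5 in paired and 416 in single peaks. At 10 to 15 Mb it was 311 in members, 360 in paired and 359 in single peaks. Median widths of members were 292 bp within 0.25 Mb, 264 bp at 5 to 10 Mb and 349 bp at 10 to 15 Mb. Those of paired peaks were 300, 255 and 276 bp in the same order, and those of single peaks 283, 260 and 256 bp.

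**Figure D4:**
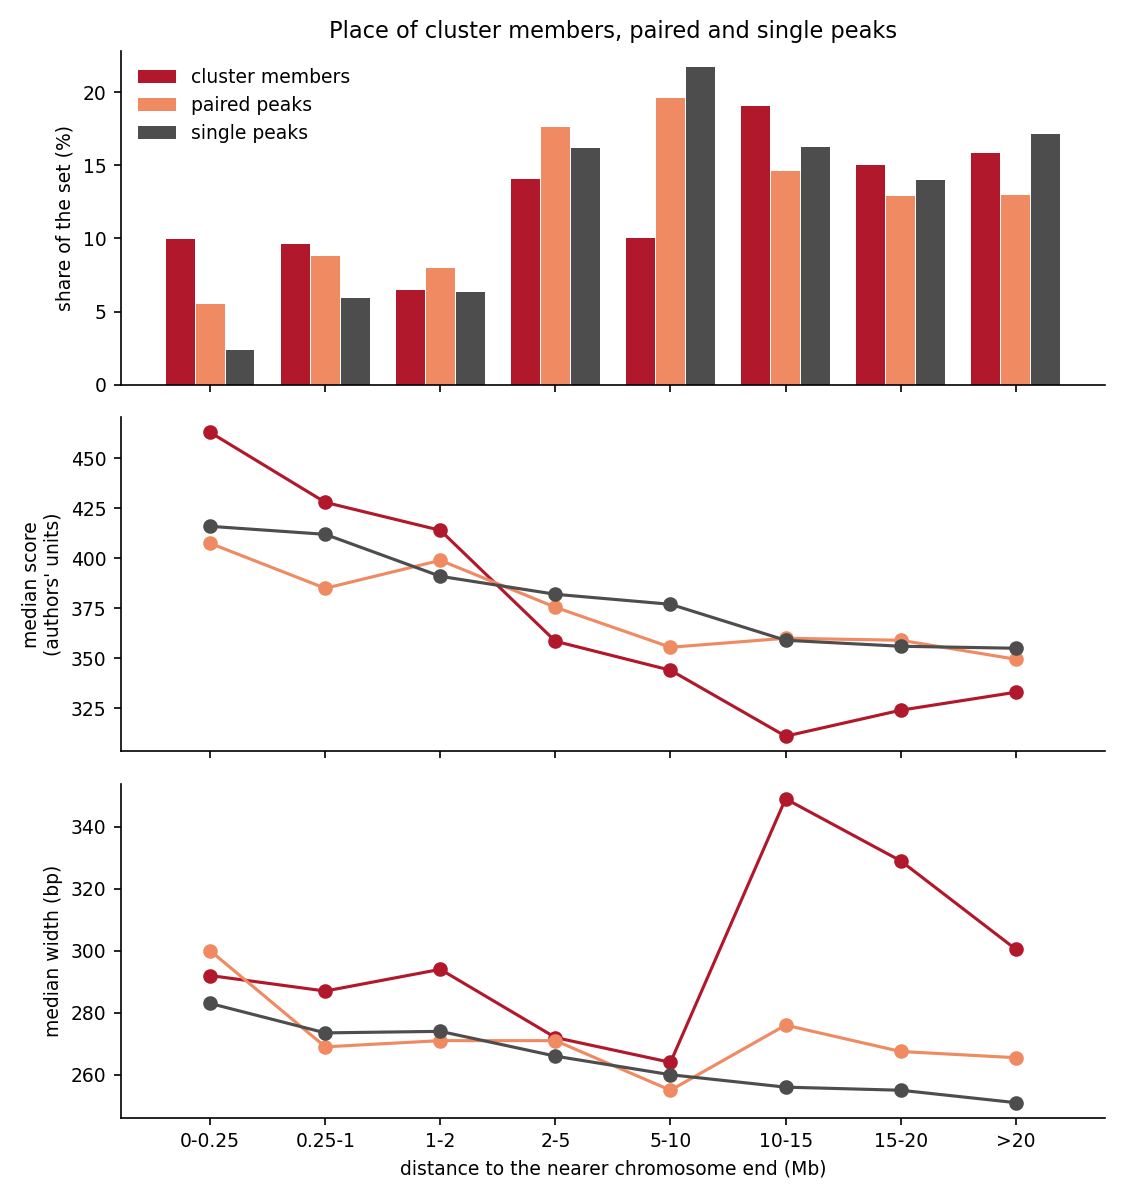
Share of each set (top), median score (middle) and median width (bottom) of cluster members, paired peaks and single peaks by distance to the nearer chromosome end in Mb; classes differ in length. Members score above single peaks within 2 Mb of an end and below them farther in, and from 10 Mb on their median width is 300.5 to 349 bp.

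These differences between places were noticed in the values and then tested on the same peaks, so the p-values describe the pattern and are no independent support for it. Within 2 Mb of an end a member outranked a single peak in score in 51.4 ± 5.14% of pairs, above 50% on 13 of 22 chromosomes, and more than 10 Mb from the ends in 42.7 ± 7.03%, above 50% on 2 of 22 (SD, n = 22 chromosomes). The difference was 8.70 percentage points and positive on 20 of 22 chromosomes (sign-flip permutation p = 8e-05, adjusted p = 0.000107 over 4 differences). Against paired peaks the difference was 9.88 points, positive on 21 of 22 (permutation p = 1e-05, adjusted p = 2e-05). A member outranked a paired peak in 53.4 ± 4.37% of pairs within 2 Mb, above 50% on 19 of 22 chromosomes. More than 10 Mb from the ends it did so in 43.6 ± 6.26%, above 50% on 3 of 22. In width, members were above single peaks in 53.2 ± 6.40% of pairs within 2 Mb and in 67.0 ± 4.97% beyond 10 Mb, a difference of -13.8 points that was positive on 1 of 22 chromosomes (permutation p = 1e-05, adjusted p = 2e-05), and against paired peaks the difference was -7.06 points (permutation p = 0.00065, adjusted p = 0.00065). A chromosome had 6 to 72 members within 2 Mb of its ends and 18 to 87 beyond 10 Mb. Merging peaks within 500 bp left 0.388 points in score (adjusted permutation p = 0.935, 18 chromosomes) and -7.20 points in width (adjusted permutation p = 0.339) against single peaks. Among the highest-scoring 50% of peaks the score differences changed sign, to -9.10 points against single and -10.1 points against paired peaks, on 12 chromosomes with clusters in both places (adjusted permutation p = 0.144 each).

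The share of a cluster's length that its peaks covered changed at about 10 Mb. Its median was 48.4% over all clusters (quartiles 36.3 and 65.1%). By distance it was 44.2% within 0.25 Mb, 37.5% at 0.25 to 1 Mb, 41.4% at 1 to 2 Mb, 42.4% at 2 to 5 Mb and 41.7% at 5 to 10 Mb, and then 59.9% at 10 to 15 Mb, 62.1% at 15 to 20 Mb and 57.7% farther from both ends. The median beyond 10 Mb was above that within 2 Mb on 21 of 22 chromosomes, the exception being chromosome 3 with 67.1% within 2 Mb and 57.7% beyond 10 Mb, and above that at 2 to 10 Mb on 21 of 22, the exception being chromosome 5 with 41.3% at 2 to 10 Mb and 39.1% beyond. Lengths differed less, with medians of 2894 bp within 2 Mb, 2392 bp at 2 to 10 Mb and 2640 bp farther in.

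Clusters covered over more than 60% of their length, a limit set after seeing the values, numbered 197, on all 22 chromosomes. Of these, 150 (76.1%) lay more than 10 Mb from an end and 20 within 2 Mb, whereas of the 411 other clusters 150 (36.5%) lay beyond 10 Mb and 135 within 2 Mb. The median width of their 672 members was 423 bp and the median score 340.5, against 273 bp and 352 for the 1389 members of the others. In 38 of the 197 clusters no gap between neighbouring peaks was over 200 bp. Coverage is the summed width of the peaks over the cluster's length. Wider members and smaller gaps therefore follow from the choice of these clusters and are no separate result.

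**Figure D5:**
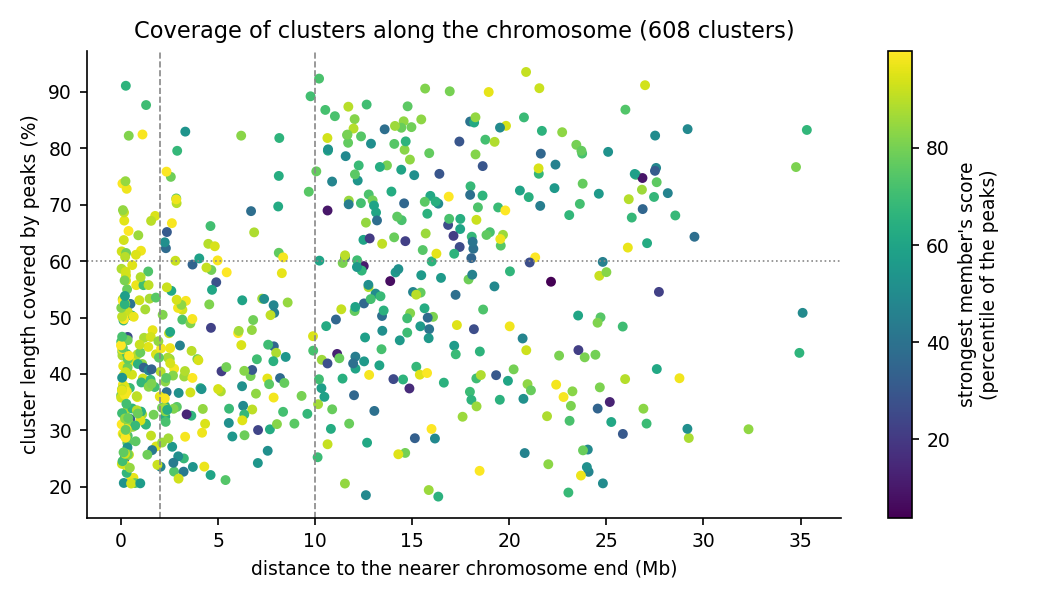
Share of each cluster's length covered by its peaks (%) against its distance to the nearer chromosome end (Mb), 1 point for each of 608 clusters, coloured by the score percentile of its strongest member. Dashed lines mark 2 and 10 Mb and the dotted line 60%. Beyond 10 Mb, 150 of 300 clusters lie above the dotted line, within 2 Mb 20 of 155. The dotted line lies at the median of the clusters beyond 10 Mb, which fixes their share above it.

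Chromosomes carried 16 to 39 clusters, 27.6 ± 5.59 on average (SD, n = 22), and members made up 4.26 to 8.22% of a chromosome's peaks. Chromosomes 1 and 16 had the most, with 39 clusters of 133 members and 38 clusters of 129 members. Chromosome 9 had the fewest, 16 clusters of 54 members, or 4.26% of its peaks, followed by chromosome 23 with 18 and chromosome 11 with 23. Chromosome 7, the longest of the 22, held 26 clusters, or 3.51 per 10 Mb, and chromosome 25, the shortest, held 26, or 7.05 per 10 Mb. Chromosome 6 had 18 of its 35 clusters within 2 Mb of its ends, the highest count, whereas on chromosomes 9 and 23 only 2 clusters lay there.

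Intervals between clusters varied widely. The median interval between neighbouring clusters was 632 kb, but 132 of 586 intervals (22.5%) were no longer than 100 kb and 50 no longer than 20 kb. At the other extreme, chromosome 5 had no cluster between 4499028 and 29243290, an interval of 24.7 Mb. Clusters were denser near the ends, and what the density of peaks alone would give for these intervals was not tested.

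In 1 Mb bins, 18 bins held 5 or more clusters. Most clusters, 9 each, were in the first megabase of chromosome 10 and in the bin of chromosome 20 from 12000001 to 13000000. These 2 bins, picked by their counts of clusters, differed in the same direction as ends and interior. Other dense bins overlapped in score. The median score of members was 359.5 in the first megabase of chromosome 1. In the interior bin of chromosome 16 from 15000001 to 16000000 it was 368. In the interior bin of chromosome 20, 35 of 83 peaks were members, with medians of 350 in score and 373 bp in width and a median coverage of 60.1%, and at chr20:12652402-12654998 no gap was over 170 bp and peaks covered 87.8%. In the end bin of chromosome 10, 32 of 114 peaks were members, with medians of 431.5 in score and 273 bp in width and a median coverage of 44.4%, and the strongest, with 1537, was at chr10:75354-78919. The bin of chromosome 6 from 59000001 to 60000000 had 8 clusters of 31 members, 2 of which were clusters of 6 peaks. More than 10 Mb from the ends, bins with 6 clusters lay on chromosome 2 (14000001 to 15000000), chromosome 14 (13000001 to 14000000) and chromosome 16 (15000001 to 16000000 and 18000001 to 19000000). Their median coverages were 52.7, 70.5, 61.1 and 69.0%. Nearer an end, the bin of chromosome 15 from 2000001 to 3000000 also had 6 clusters. Its median coverage was 48.3%, and its members had medians of 284 in score and 251 bp in width.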

How the data were processed

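Positions, widths, summits and scores were read from 1 deposited list, which joins both ChIP replicates per the file headers. In the submitters' processing notes appear deepTools 3.0.1, MACS2, the build danRer10, Bowtie2 2.2.5, Picard 1.45, CASAVA, SAMtools 1.1, FastQC 0.9.3 and cutadapt 1.3, without their roles. How peaks were called, at which threshold and against which input was not given in the sources used here. The deposited score is a whole number from 88 to 11089 of unstated scale; the columns for signal, p and q hold 0 throughout. Peaks were placed by their centres, and the last peak of a chromosome was taken as its right end. For scores and widths, every member was compared with every single peak of its chromosome and, separately, with every paired peak. The percentage of wins was taken, ties split evenly. The departure from 50% was tested by a two-sided sign-flip permutation over 22 chromosomes (100000 resamples, Benjamini-Hochberg over 4 comparisons). Members of 1 cluster are not independent. The scripts were tested on simulated data. Links of 1000 and 3000 bp, merging of peaks within 500 bp, the highest-scoring 50% of peaks and comparisons within classes of width and place were tried as alternatives. The rule, the lists and the tests were chosen with earlier results of these data known. The clusters named are the 10 with most peaks, the 5 longest, the 5 with the highest-scoring member, the 5 shortest trios and those next to the 2000 bp limit; the limits of 2, 10 and 60 used for place and coverage, and the clusters of the densest bins, were chosen after the values were seen. Intervals on shares and counts are 95% intervals and cover counting error only. Python 3.11.15, numpy 2.4.6, scipy 1.17.1, pandas 2.3.3 and matplotlib 3.10.9 were used.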

Additional observations from a re-analysis of the deposited data

Results flagged for a closer look

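Clusters by the same rule were also present in sequence that the comparisons left out, which is what marked these values. Chromosome 4 held 30 clusters among 1117 peaks, chromosome 18 held 56 among 1787 peaks, chromosome 22 held 32 among 1561 peaks and unplaced scaffolds held 34 among 1085 peaks. Their members made up 9.13, 12.3, 6.73 and 10.6% of the peaks there, against 6.43% on the 22 chromosomes of the rule. The largest cluster among them, of 14 peaks on chromosome 18, exceeded the 9 peaks of the largest cluster described above.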

How the results depend on the processing

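Apart from fits that left out 1 chromosome each, 65 of 85 recomputed values kept their direction and side of the 0.05 threshold, or stayed within 1.5 times for the count of clusters and within the interval for a share. All 4 score and width comparisons lost the threshold after merging and in the highest-scoring 50%. Links of 1000 bp left 246 clusters, the highest-scoring 50% of peaks 95 and merging within 500 bp 155, since fewer peaks or links remain by construction; 3000 bp gave 881. In the highest-scoring 50%, departures from 50% were -0.606 (score, single), -0.601 (score, paired), 6.27 (width, single) and 2.62 points (width, paired), with adjusted permutation p of 0.808, 0.808, 0.07 and 0.586. After merging they were -2.93, -0.876, 1.80 and 0.961 points (adjusted permutation p = 0.262, 0.64, 0.262 and 0.635), and the middle peak of trios was strongest in 23.9%. The differences of chromosome ends minus interior were -9.10, -10.1, -21.6 and -14.3 points in the highest-scoring 50% and 0.388, 2.31, -7.20 and -1.40 points after merging, in the same order, none past the threshold; the cause was not tested. Leaving out each chromosome in turn gave departures of -4.32 to -3.54 points for score and 10.1 to 10.8 for width against single peaks, and of -3.15 to -2.58 and 7.22 to 7.94 against paired peaks. Comparison within classes of distance to the end, chosen after seeing the data, gave -4.36 points for score against single peaks, and within classes of width -9.30. With 1 median for each cluster, also chosen after seeing the data, score departed by -3.25 points against single and -2.08 points against paired peaks (adjusted permutation p = 0.0119 and 0.0491). No paired analysis was possible because the ChIP replicates had been joined into 1 list, and for the same reason no replicate could be left out. At unknown depth, a cluster can lack a weak member that was not detected.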
